A study of Mus musculus with 6 samples.

Results

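The galectin genes Lgals1, Lgals3, Lgals4, Lgals7, Lgals8 and Lgals9 were followed in MTflEcad, a line of mouse mammary tumour epithelial cells labelled with the strain MMTV-Neu, in which the mammary tumour virus promoter drives the Neu oncogene. Cells received hydrogen peroxide (H2O2) every day for 7 months at 80 µM (I80) or at 150 µM (DI150). Untreated cells (PBS, 0 µM) were the controls, and all 3 groups share the line and its MMTV-Neu origin. Each group had 2 libraries of ribosome-depleted total RNA, called biological duplicates in the series' design. Each dose was 1 long-term line, so an effect of the dose and a change particular to that line cannot be told apart. The 6 genes are a family set of 6 rows, matched by mouse gene number, among 24454 rows of the table. They were selected on the basis of their levels in these same libraries, so their differences are described without p-values. Counts of members past test thresholds are given later, and nothing is read from them. All 6 passed the filter of a mean of at least 1 CPM (a read count scaled to a library total of 1000000), as did 11428 genes in all. Libraries held 21017849 to 26608715 assigned reads.

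Galectins are small soluble lectins that bind galactose-containing glycans, above all N-acetyllactosamine on N-glycans and O-glycans. They have no signal peptide, work in the cytosol and nucleus, and leave the cell by an unconventional route to crosslink glycoproteins at the surface and in the matrix. Galectin-1 and galectin-7 are prototype galectins that pair as dimers of a single carbohydrate-binding domain. Galectin-3 is the chimera type, which forms larger assemblies through its collagen-like tail, and galectin-4, galectin-8 and galectin-9 carry a pair of different carbohydrate-binding domains in tandem. In mammary tumours galectin-1 and galectin-3 are the family members most often studied, in adhesion, migration and immune evasion.

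The promoter stretches of Lgals3, Lgals7 and Lgals9 are shown because these members had the widest differences between I80 and PBS among those in the RefSeq promoter table (GRCm38.p6). That table matched 5 of the 6 members and had no entry for Lgals1. Each run is the 250 bases before the tabled start, 5′ to 3′ on the gene's strand, with matches to 5 searched motifs in capitals. Lgals3 lies at chr14:47373610-47373859, plus strand. Lgals7 lies at chr7:28864136-28864385, plus strand, and its tabled start falls inside the RefSeq gene. Lgals9 lies at chr11:78984925-78985174, minus strand.
Lgals3: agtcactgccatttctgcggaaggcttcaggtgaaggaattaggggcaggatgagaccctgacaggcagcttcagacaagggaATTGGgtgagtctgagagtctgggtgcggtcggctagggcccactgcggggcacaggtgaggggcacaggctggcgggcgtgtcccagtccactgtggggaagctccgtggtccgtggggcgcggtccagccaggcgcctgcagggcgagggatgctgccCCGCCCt
Lgals7: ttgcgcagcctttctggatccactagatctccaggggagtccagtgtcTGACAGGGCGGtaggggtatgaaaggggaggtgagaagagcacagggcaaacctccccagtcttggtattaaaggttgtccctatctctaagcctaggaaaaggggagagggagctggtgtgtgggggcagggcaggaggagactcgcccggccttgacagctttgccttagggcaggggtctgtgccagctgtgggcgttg
Lgals9: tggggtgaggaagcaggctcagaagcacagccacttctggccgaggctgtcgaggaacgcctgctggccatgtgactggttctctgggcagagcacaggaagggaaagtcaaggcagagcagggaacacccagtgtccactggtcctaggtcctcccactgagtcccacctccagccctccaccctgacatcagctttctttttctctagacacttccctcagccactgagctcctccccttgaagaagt

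The motifs searched on both strands were the AP-1 site TGANTCA, the core of the antioxidant response element TGACNNNGC, the GC box GGGCGG, the TATA box TATAAA and the CCAAT box CCAAT. Of 32851 mouse promoter windows of the same length, 6.75% held the AP-1 letters, 10.2% the antioxidant response core, 32.7% the GC box, 12.4% the TATA box and 33.8% the CCAAT box. The Lgals7 window held 1 match to the antioxidant response core, TGACAGGGC, whose first base lay 202 bases before the start and which overlapped a GC box at 197 bases. The Lgals3 window had 13 CpG dinucleotides against a median of 6 over all windows, with a GC box 7 bases and a CCAAT box 167 bases before the start. The Lgals9 window had 3 CpG dinucleotides and none of the searched letters. The Lgals8 window held 2 CCAAT boxes, at 230 and 203 bases, and its tabled start falls inside the RefSeq gene, as for Lgals7. These are matches of letters in a window, and no binding was measured.

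The summed galectin level was lower in both treated lines and its make-up was different. PBS cells carried mainly Lgals1 and Lgals3 transcripts, and the treated lines carried mainly Lgals3 and Lgals9, with Lgals1 below Lgals8. Lgals1, Lgals3, Lgals7 and Lgals8 were lower in both treated lines than in PBS, Lgals9 was higher in both, and Lgals4 was low throughout and overlapped PBS.

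Lgals1 encodes galectin-1, which binds surface glycoproteins such as CD44 and integrins and inside the cell associates with Ras. The gene (number 16852) spans chr15:78926725-78930465, plus strand, in GRCm38. The PBS libraries had 2583 and 2124 CPM, from 68718 and 52533 reads. The I80 libraries had 2.34 and 3.34 CPM, from 60 and 81 reads, and the DI150 libraries had 3.57 and 4.35 CPM, from 75 and 114 reads. Both PBS libraries therefore sat far above all 4 treated libraries, while every treated library still had reads well above the 3-read floor that stands for a count of 0. The ratio of mean CPM was 828.7-fold lower in I80 and 594.4-fold lower in DI150. From pooled reads, the 95% counting intervals of those falls from the PBS level were 708.5 to 992.9 and 511.7 to 684.3. All intervals here are exact for counting error only, since PCR copies were not told apart. On the scale of log2(CPM + 0.5), which understates changes of low genes, the difference was -9.47 ± 0.17 (SE) in I80 and -9.04 ± 0.17 in DI150. Those values ranked 2 and 5 from the lowest among the 11428 tested genes. DI150 exceeded I80 without overlap, by 0.43 ± 0.17 in log2, but the nearest libraries of both lines were closer together than the libraries within either line.

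**Figure D1:**
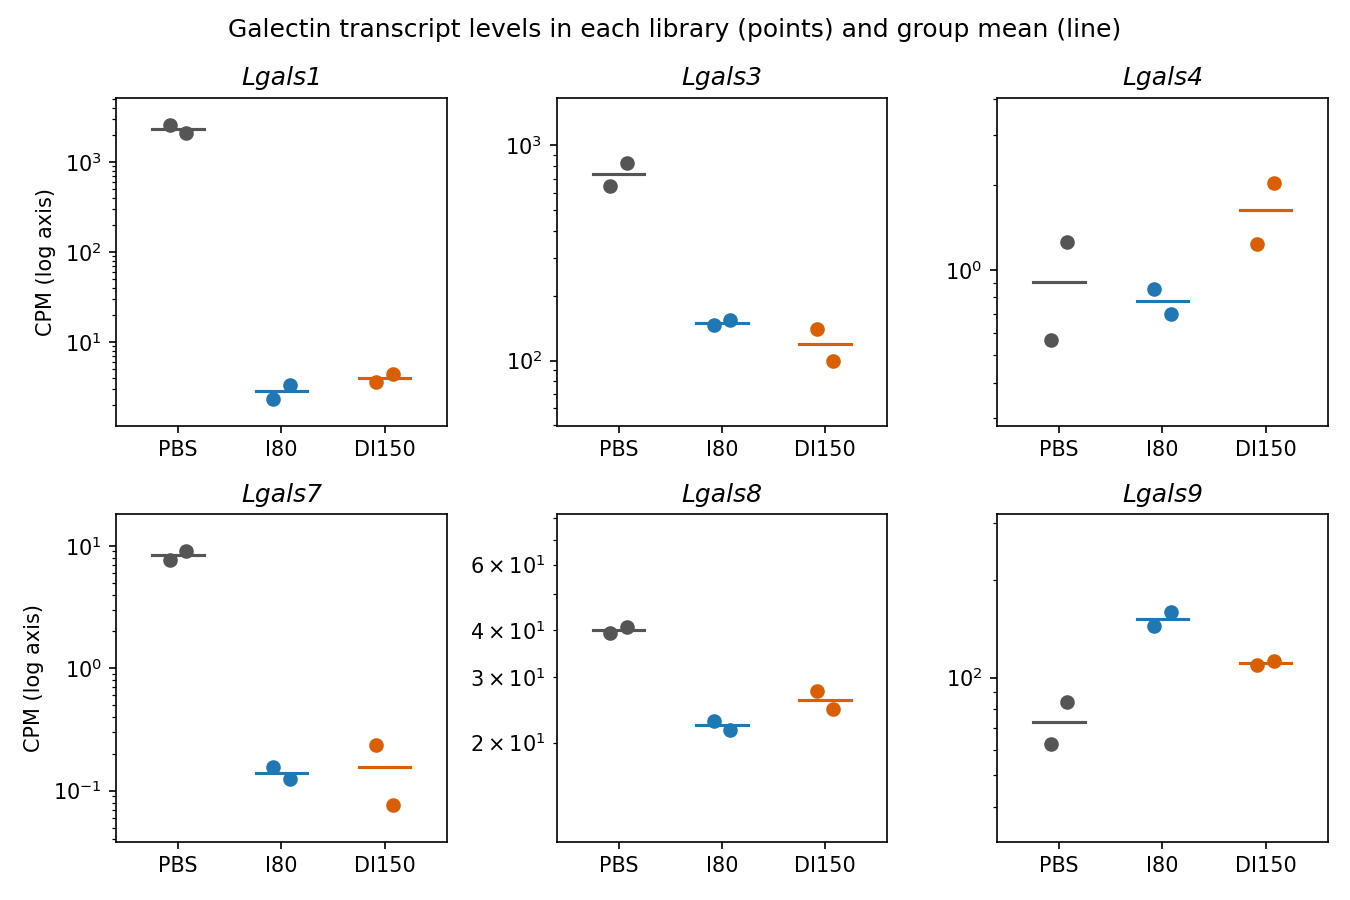
Level of each galectin in CPM on a log axis, with its own range in each panel, for the 2 libraries (points) and their mean (line) of PBS, I80 and DI150. Lgals1 stands at 2124 to 2583 CPM in PBS and at 2.34 to 4.35 CPM in the 4 treated libraries, Lgals9 is the member with both treated lines above PBS, and Lgals4 overlaps between PBS and each treated line.

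Lgals3 encodes galectin-3, a carrier of adhesion and survival functions at the surface, in the cytosol and at damaged lysosomes. The gene (number 16854) spans chr14:47373860-47386167, plus strand. Its levels were 644.3 and 830.7 CPM in PBS, 146.2 and 153.9 CPM in I80, with 139.6 and 99.6 CPM in DI150. The 2 treated lines lay below PBS and next to each other, with DI150 replicate 3 the lowest of the 6 libraries. Mean CPM was 4.91-fold lower in I80 and 6.17-fold lower in DI150, with log2 differences of -2.28 ± 0.17 and -2.63 ± 0.17. Between the treated lines the log2 difference was -0.35 ± 0.17. The DI150 libraries lay further apart than the nearest libraries of both lines, so no order of the treated lines is drawn. With the replicate number as a block the difference became 0.01. DI150 replicate 3 is alone in its block, so that value rests on DI150 replicate 1 and does not bear on the order.

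Lgals7 encodes galectin-7, best known from stratified epithelia and as a gene induced by p53. The gene (number 16858) spans chr7:28863796-28866285, plus strand, and overlaps the antisense gene Gm10648. Whether counting used strand is not stated in the labels, so reads of both genes cannot be told apart. PBS libraries had 7.67 and 9.06 CPM, from 204 and 224 reads. The I80 libraries had 0.156 and 0.124 CPM, from 4 and 3 reads, and the DI150 libraries had 0.238 and 0.0763 CPM, from 5 and 2 reads. All 4 treated libraries were thus at or near the 3-read floor, and they overlapped each other. Pooled reads put Lgals7 59.4-fold lower in I80 (95% interval 28.6 to 148.7) and 56.2-fold lower in DI150 (27.1 to 140.7). The log2 differences of -3.79 ± 0.20 and -3.76 ± 0.20 depend on the pseudocount, and reached -5.85 and -5.77 in edgeR on whole reads. Its neighbour in the genome, Lgals4, did not share this pattern.

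Lgals8 encodes galectin-8, which marks ruptured endosomes and lysosomes for autophagy. The gene (number 56048) spans chr13:12439402-12464977, minus strand, and overlaps Heatr1 on the other strand. Levels were 39.2 and 40.9 CPM in PBS, 22.9 and 21.7 CPM in I80, with 27.5 and 24.7 CPM in DI150. Both treated lines lay below PBS, and DI150 lay above I80 with no overlap. The DI150 libraries lay further apart than the nearest libraries of both lines, so no order of the treated lines is drawn. Mean CPM was 1.80-fold lower in I80 and 1.54-fold lower in DI150, with log2 differences of -0.83 ± 0.09 and -0.61 ± 0.09. The difference between DI150 and I80 was 0.22 ± 0.09. Heatr1, a nucleolar protein gene whose reads could be shared with Lgals8, had 193.8 and 138.3 CPM in PBS and 126.8 to 152.7 CPM in the treated libraries.

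Lgals9 encodes galectin-9, a tandem-repeat galectin that binds the immune receptor TIM-3 (Havcr2) and, inside cells, damaged lysosomes. The gene (number 16859) spans chr11:78962979-78984924, minus strand. Its levels were 62.4 and 84.1 CPM in PBS, 144.3 and 159.1 CPM in I80, with 109.0 and 112.4 CPM in DI150. I80 was highest and PBS lowest, with no overlap between any groups. Mean CPM was 2.07-fold higher in I80 and 1.51-fold higher in DI150 than in PBS, with log2 differences of 1.06 ± 0.13 and 0.61 ± 0.13. DI150 was 1.37-fold lower than I80, a log2 difference of -0.45 ± 0.13.

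Lgals4 encodes galectin-4, typical of gut epithelium. The gene (number 16855) spans chr7:28833122-28841710, plus strand. It has a near-identical paralogue in some mouse strains, so its count is uncertain. Its levels were 0.564 and 1.25 CPM in PBS, 0.858 and 0.701 CPM in I80, with 1.24 and 2.02 CPM in DI150, from 15 to 53 reads a library. The I80 libraries fell between the PBS libraries, and the lower DI150 library sat just under the higher PBS library. The log2 difference was -0.10 ± 0.29 in I80, which turned to 0.26 without PBS replicate 2. It was 0.62 ± 0.29 in DI150, with 0.26 without PBS replicate 1, 0.98 without PBS replicate 2 and 0.35 without DI150 replicate 3. DI150 exceeded I80 by 0.71 ± 0.29, a ratio of 2.09 in mean CPM, and by 0.44 without DI150 replicate 3.

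Counted over the family, 5 of the 6 members had I80 and PBS libraries that did not overlap, 1 higher and 4 lower, where 83.7% of all tested genes did not overlap. For DI150 against PBS it was again 5 of 6, 1 higher and 4 lower, beside 83.5% of tested genes. For DI150 against I80 it was 5 of 6, 3 higher and 2 lower, beside 78.5%. A difference of at least 2-fold in mean CPM was met by 4 members in I80 against PBS, beside 22.4% of tested genes. It was met by 3 members in DI150 against PBS, beside 23.2%, and by Lgals4 in DI150 against I80, beside 9.95%. limma at an adjusted p under 0.05 called 1 member higher and 4 lower in I80 against PBS, where 32.3% of tested genes were higher and 34.2% lower. In DI150 against PBS the calls were again 1 higher and 4 lower, beside 32.7% and 36.1%. In DI150 against I80 it called Lgals9 alone, as lower, beside 21.9% of tested genes in each direction. Since the members were selected on these contrasts, nothing is read from these counts.

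To compare levels between galectins, CPM were divided by the length of the longest coding transcript in GENCODE. In this unit (CPM per kb) the 6 members summed to 3534 ± 300.4 (SD, n = 2) in PBS, 213.5 ± 10.9 in I80 and 169.6 ± 18.2 in DI150. Lgals1 made up 83.1% ± 4.40 of that sum in PBS, 1.65% ± 0.328 in I80 and 2.96% ± 0.725 in DI150. Lgals3 was 14.9% ± 3.89 of the sum in PBS, 49.5% ± 0.735 in I80 and 49.4% ± 6.49 in DI150. Lgals9 was 1.32% ± 0.386 of it in PBS, 44.8% ± 0.803 in I80 and 41.4% ± 5.36 in DI150. From high to low per length, PBS had Lgals1, Lgals3, Lgals9, Lgals8, Lgals7 and Lgals4, in the same order in both libraries. In I80 it was Lgals3, Lgals9, Lgals8, Lgals1, Lgals4 and Lgals7 in both libraries. In DI150 the mean order matched that of I80, but Lgals3 and Lgals9 exchanged places between the libraries, so these neighbours did not differ beyond their spread.

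**Figure D2:**
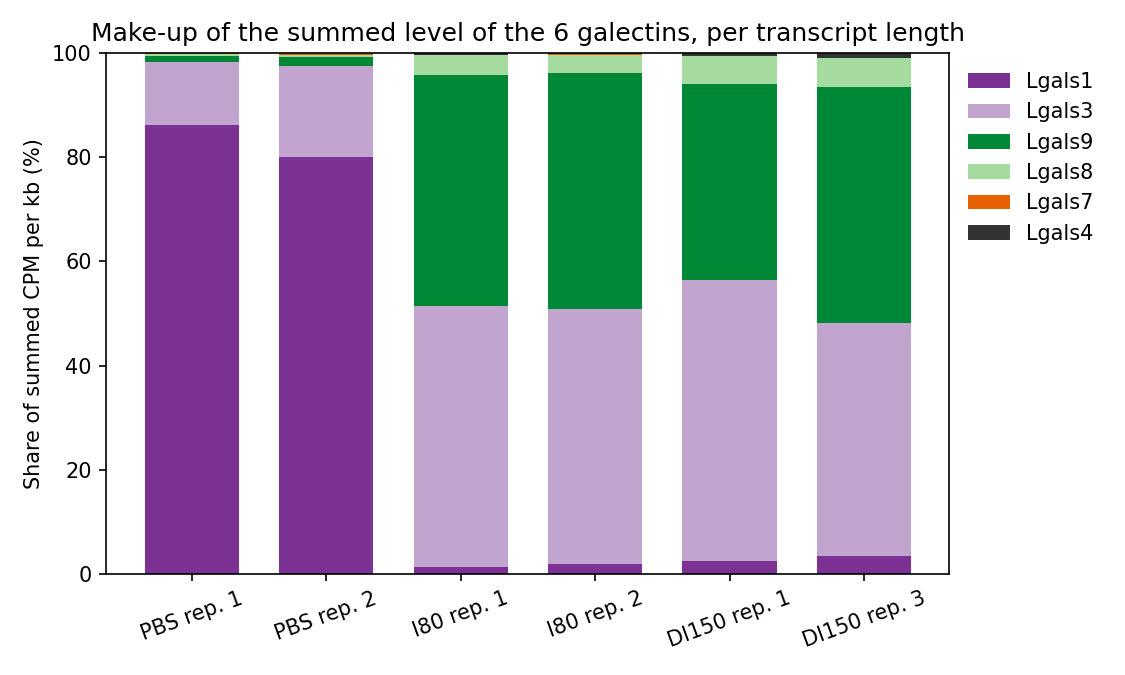
Share of each galectin in the summed level of the 6 members, in percent of CPM per kb of transcript, for each of the 6 libraries (1 bar each). Lgals1 fills 80.0% and 86.2% of the PBS bars and 1.42% to 3.47% of the treated bars, where Lgals3 and Lgals9 share most of the rest.

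Ratios taken within a library need no comparison of depth between libraries. Lgals1 stood at 7.11 and 4.54 times Lgals3 per length in PBS, at 0.0284 and 0.0385 times in I80, and at 0.0453 and 0.0775 times in DI150. Lgals9 stood at 0.0867 and 0.0905 times Lgals3 in PBS, at 0.883 and 0.925 times in I80, and at 0.698 and 1.01 times in DI150. Both ratios separated PBS from every treated library, and for Lgals9 to Lgals3 the I80 values lay between the DI150 values. Lgals9 to Lgals8, both tandem-repeat galectins, was 2.85 and 3.68 in PBS, 11.3 and 13.2 in I80, with 7.10 and 8.16 in DI150, with no overlap between groups.

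Other galectins and galectin-related genes were sparse or alike between groups. Lgals2, a prototype galectin of the gut that overlaps Cdc42ep1 on the other strand, had 26 and 30 reads in PBS, 0 in both I80 libraries, and 0 and 1 in DI150. It was at least 9.10-fold lower in I80 against a floor of 3 reads per library, and the pooled ratio in DI150 was 51.5-fold lower (95% interval 8.87 to 2070). Lgals12, an adipocyte galectin, had 3 reads in PBS replicate 2 and none elsewhere. Grifin, a lens galectin-like protein, had 1 read in PBS, 11 in I80 and 11 in DI150, with at most 7 in any library. Lgalsl, a galectin-like protein without a known lectin role, had 78.5 and 77.9 CPM in PBS, 80.9 and 76.0 in I80, with 63.9 and 74.1 in DI150. Lgals3bp, a secreted glycoprotein ligand of galectin-3, had 1.13 and 2.67 CPM in PBS, 0.585 and 1.15 in I80, with 0.904 and 0.992 in DI150. Of the 5 with a row, Lgalsl and Lgals3bp could be tested, and limma called neither in any comparison. Their log2 differences in I80 against PBS were 0.00 (limma adjusted p = 0.97) and -0.76 (limma adjusted p = 0.08), with n = 2 a group.

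Epithelial markers had reads in all groups, at a lower sum in the treated lines. All 10 epithelial markers had at least 1 CPM in PBS and 8 of them in each treated library. Krt19 was at 0 in the treated libraries, and Cldn4 went from 123.9 and 177.6 CPM in PBS to 0.412 to 0.936 there. The summed level of the 10 was 9948 to 10224 CPM in PBS, 3986 to 3999 in I80 and 3741 to 4088 in DI150. Of 9 macrophage markers 3 to 5 had reads in a library, Adgre1 and Tyrobp were at 0 in all libraries, and Csf1r had 7.67 and 14.5 CPM in PBS and 0 in the treated lines. The macrophage sum was 9.77 to 17.3 CPM in PBS, 1.91 to 2.31 in I80 and 2.02 to 2.05 in DI150. The fibroblast sum was 21.8 to 24.4 CPM over all libraries, with reads for 3 to 6 of 9 markers and Pdgfrb and Thy1 at 0. Within it Col1a2 had 15.3 CPM in each PBS library and 0 in the treated lines, while Pdgfra went from 5.04 and 5.50 CPM in PBS to 14.5 to 19.0 in the treated libraries and Col1a1 from 1.47 and 2.75 to 3.63 to 8.90. Lymphocyte and endothelial sums stayed at or below 0.195 and 0.742 CPM. Bulk RNA cannot tell fewer cells of a type from less RNA per cell. The epithelial and macrophage sums moved in the direction of Lgals1, Lgals3, Lgals7 and Lgals8, but not all of their genes did. Epcam had 583.2 and 628.6 CPM in PBS, 647.5 to 715.8 in I80 and 1002 to 1109 in DI150. Every other epithelial marker was lower in all treated libraries than in both PBS libraries. Cd68 had 1.84 and 2.43 CPM in PBS and 1.43 to 1.98 in the treated libraries, so most of the macrophage difference lay in Csf1r. The part of these markers in the galectin results was not tested. The members past 1 log2 unit in I80 against PBS were 4, and again 4 without PBS replicate 2. They were 3 without PBS replicate 1 and 3 without I80 replicate 2, where Lgals9 was at 0.85 and 0.99. With a filter at a mean of 5 CPM, which Lgals7 did not pass, they were also 3. These counts are no test of the markers.

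Glycan-building enzymes decide which galectin ligands a cell displays. Of 37 listed enzymes 28 were tested. In I80 against PBS, limma called 12 higher and 11 lower with 5 not called. These were 42.9% and 39.3% of the list, beside 32.3% and 34.2% of all tested genes. The list's median log2 difference was 0.05 beside -0.002 for all tested genes. In DI150 against PBS it called 8 higher and 15 lower with 5 not called, 28.6% and 53.6% of the list beside 32.7% and 36.1% of all, with a median of -0.22 beside -0.03. In DI150 against I80 it called 7 higher and 9 lower with 12 not called, 25% and 32.1% beside 21.9% each way, with a median of 0.10 beside 0. The lists were compiled with earlier results of these data known, and the 2 comparisons with PBS share their control libraries.

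The enzymes with the largest called differences from PBS were B3gnt3, Mgat3, Gcnt2 and Man1c1, in both treated lines. B3gnt3, which extends core O-glycans with N-acetylglucosamine, had 68.7 and 73.8 CPM in PBS, 0 in I80, with 0.048 and 0.038 in DI150. It fell at least 592-fold in I80, and the pooled ratio in DI150 was 1680-fold (95% interval 464.8 to 13878). Mgat3, whose bisecting N-acetylglucosamine hinders N-glycan branching, had 32.8 and 48.0 CPM in PBS, 0 in I80, with 0 and 0.076 in DI150. It fell at least 335.4-fold in I80, with a pooled ratio of 946.5 in DI150 (261.7 to 7821). Gcnt2, the enzyme of branched poly-N-acetyllactosamine, had 15.2 and 14.0 CPM in PBS, 0 in I80, with 0.476 and 0.382 in DI150. limma gave adjusted p from 4.3e-08 to 7.7e-07 for these 3 genes in both treated lines, and all treated libraries were below both PBS libraries. Man1c1, a Golgi mannosidase that trims N-glycans, had 48.7 and 78.0 CPM in PBS, 5.23 and 5.98 in I80, with 6.38 and 7.48 in DI150.

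Mgat5 makes the N-glycan branch that carries the preferred galectin-3 ligand, and it had 34.2 and 37.1 CPM in PBS, 34.9 and 34.5 in I80, with 33.1 and 31.3 in DI150. limma did not call it in any comparison (adjusted p = 0.72 in I80 and 0.17 in DI150, log2 differences of -0.04 ± 0.09 and -0.14 ± 0.09). St6gal1 adds sialic acid in its own linkage, which blocks galectin-1 binding. It fell from 70.0 ± 15.0 to 26.7 ± 0.580 CPM in I80 (limma adjusted p = 9.5e-05) and 34.9 ± 2.70 CPM in DI150 (limma adjusted p = 0.00052). Mgat5 and St6gal1 were picked for their known roles after their values were seen.

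Between the treated lines, the largest called differences were those of St3gal3, Ggta1, St3gal2 and Gcnt1. St3gal3, a sialyltransferase, had 13.0 and 13.5 CPM in I80, inside the PBS range of 11.7 to 16.3, and 2.43 and 3.01 in DI150. Ggta1, which adds a terminal alpha-galactose, had 69.0 and 65.4 CPM in PBS, 113.3 and 99.4 in I80, with 27.5 and 28.6 in DI150. It rose by 0.66 ± 0.09 in log2 in I80 and fell by 1.25 ± 0.09 in DI150, and DI150 minus I80 was -1.90 (limma adjusted p = 1.11e-05). Gcnt1, which starts the core 2 O-glycan branch, had 171.4 and 263.5 CPM in PBS, 63.3 and 61.7 in I80, with 141.2 and 121.3 in DI150. St3gal2, another sialyltransferase, had 5.30 and 10.8 CPM in PBS, 1.64 and 2.14 in I80, with 0.571 and 0.611 in DI150. Its difference between the treated lines, -1.12 (limma adjusted p = 0.0196), was not called when any single I80 or DI150 library was left out.

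Among 27 surface and matrix partners 21 were tested. In I80 against PBS limma called 4 higher and 12 lower with 5 not called, 19.0% and 57.1% of the list beside 32.3% and 34.2% of all tested genes, at a median log2 difference of -0.51. In DI150 against PBS it called 4 higher and 13 lower with 4 not called, 19.0% and 61.9% beside 32.7% and 36.1%, at a median of -0.88. In DI150 against I80 it called 5 higher and 7 lower with 9 not called, 23.8% and 33.3% beside 21.9% each way, at a median of -0.13. Fn1, the matrix fibronectin that galectins crosslink to integrins, had 1098 and 1321 CPM in PBS, 306.7 and 265.0 in I80, with 109.7 and 95.9 in DI150. The groups stepped down without overlap, at log2 differences of -2.08 ± 0.12 for I80 against PBS (limma adjusted p = 3.5e-06) and -1.47 ± 0.12 for DI150 against I80 (limma adjusted p = 0.000121). Its receptor subunit Itga5 had 3.27 and 3.03 CPM in PBS and 1 read in all treated libraries together. Itga3, a laminin receptor subunit, had 1388 and 1118 CPM in PBS, 386.4 and 365.5 in I80, with 552.8 and 536.8 in DI150.

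Spn, the mucin-like galectin-1 ligand CD43, had 14.5 and 27.1 CPM in PBS, 0.663 and 0.412 in I80, with 0 and 0.267 in DI150. Spn is also a leucocyte gene, and it moved with the macrophage sum given above. Egfr, a growth factor receptor that the galectin lattice holds at the surface, had 25.5 and 32.1 CPM in PBS, 12.1 and 11.1 in I80, with 2.66 and 2.25 in DI150. Mcam, a surface ligand of galectin-3, had 12.0 and 12.4 CPM in I80, inside the PBS values of 7.55 and 15.7, and 2.43 and 3.66 in DI150. Nrp1, a galectin-1 receptor, had 82.1 and 118.8 CPM in PBS, 245.1 and 251.5 in I80, with 119.7 and 128.6 in DI150. Of the immune receptors, Havcr2, the TIM-3 partner of galectin-9, had 0.676 and 4.93 CPM in PBS and 0 in all treated libraries, and it did not pass the filter on low values.

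Among 15 intracellular partners 14 were tested. limma called 5 higher, 4 lower and left 5 not called in I80 against PBS, 35.7% and 28.6% of the list beside 32.3% and 34.2% of all tested genes, at a median log2 difference of 0.07. It called 4 higher, 6 lower and left 4 not called in DI150 against PBS, 28.6% and 42.9% beside 32.7% and 36.1%, at a median of -0.04. In DI150 against I80 it called 1 higher and 6 lower, 7.14% and 42.9% beside 21.9% each way, and 2 in all when any single I80 or DI150 library was left out. Prkaa2, a catalytic subunit of the AMPK kinase that galectin-9 activates at damaged lysosomes, had 0.489 and 0.162 CPM in PBS, 51.3 and 49.3 in I80, with 27.5 and 33.5 in DI150. It rose by 5.97 ± 0.20 in log2 in I80 (limma adjusted p = 2.7e-07) and by 5.25 ± 0.20 in DI150 (limma adjusted p = 4.5e-07). Prkaa1, the other catalytic subunit, went the other way, from 85.8 and 87.7 CPM in PBS to 53.1 and 57.5 in I80 and 62.6 and 67.7 in DI150.

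Rraga, a Rag GTPase of the mTORC1 machinery that galectin-8 engages, had 85.8 and 75.9 CPM in PBS, 134.9 and 138.3 in I80, with 81.2 and 81.2 in DI150. Trim16, which works with galectin-3 at damaged lysosomes, had 131.3 and 147.6 CPM in PBS, 222.8 and 211.2 in I80, with 159.4 and 158.2 in DI150. Both genes rose in I80 (log2 differences of 0.76 and 0.64, limma adjusted p = 8.3e-05 and 0.00018). In DI150 against PBS limma called neither (limma adjusted p = 0.93 for Rraga and 0.055 for Trim16). Both DI150 libraries of Trim16 still lay above both PBS libraries. Slc38a9, an amino acid sensor of the same machinery, rose in DI150 by 0.51 ± 0.13 in log2 (limma adjusted p = 0.0081), a call lost without DI150 replicate 1. Bcl2, a survival factor bound by galectin-3, had 48.9 and 46.7 CPM in PBS, 39.6 and 39.8 in I80, with 31.7 and 35.0 in DI150. Tsg101, an ESCRT subunit, had 56.0 and 51.3 CPM in I80 and 42.8 and 42.3 in DI150, beside 50.5 and 54.2 in PBS.

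**Figure D3:**
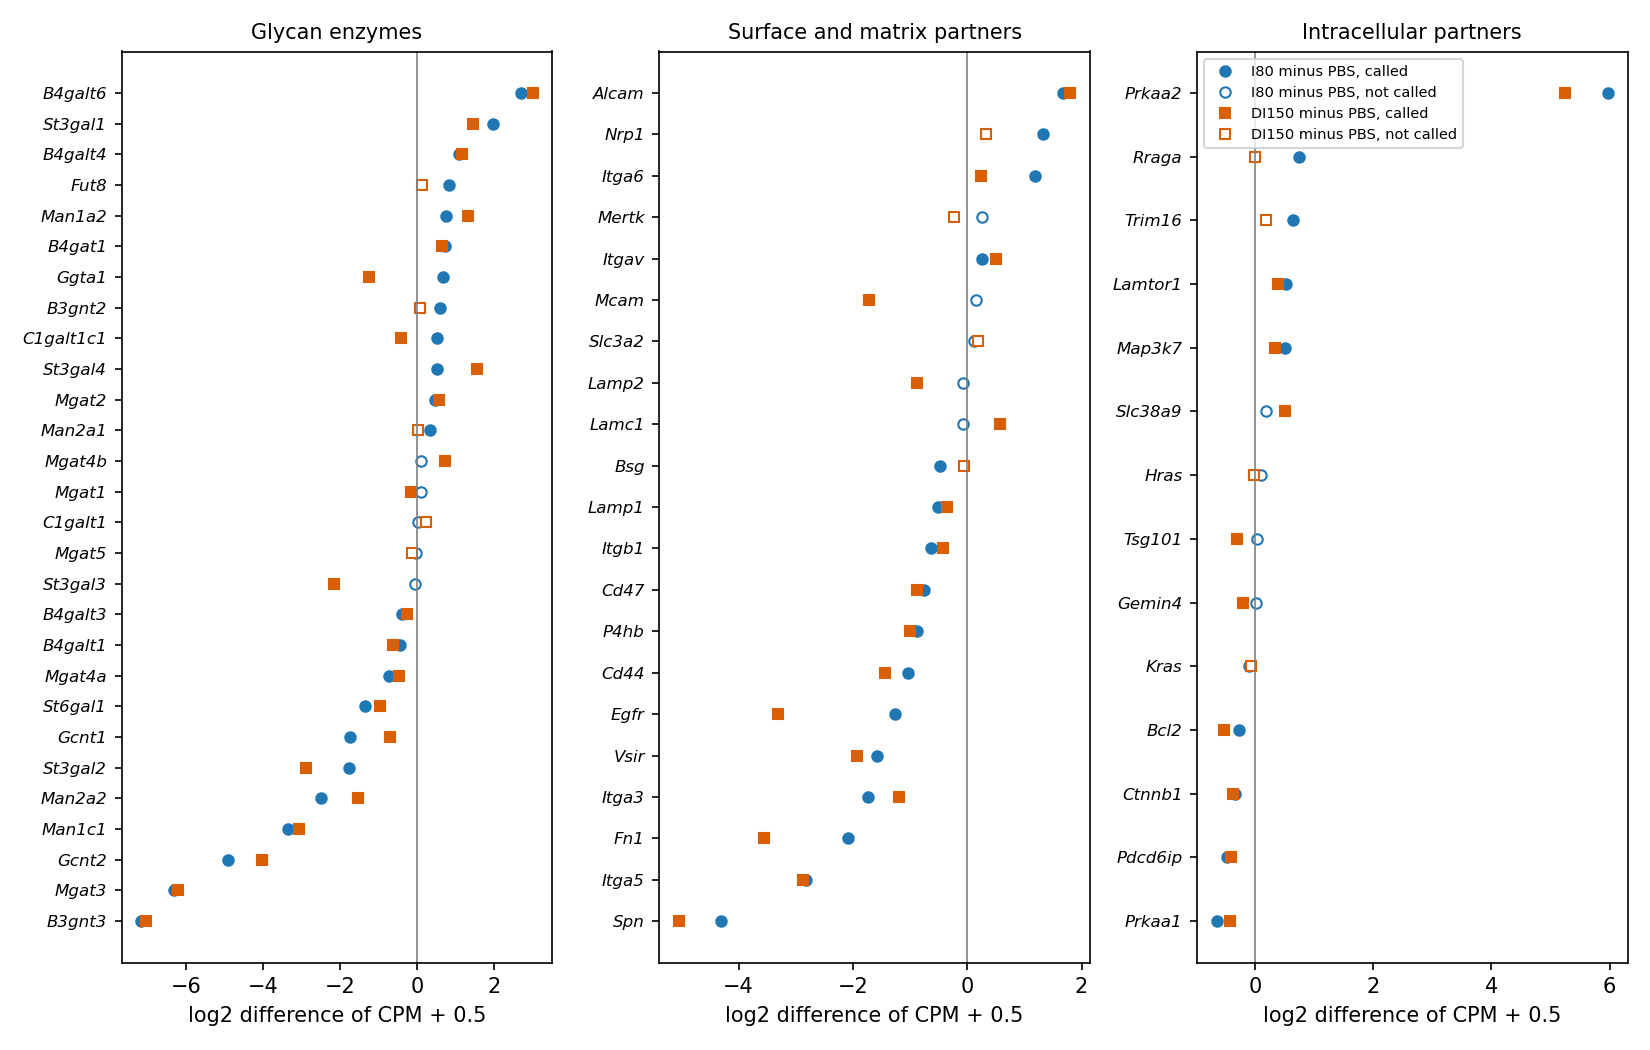
Difference in log2(CPM + 0.5) from PBS for every tested glycan enzyme, surface or matrix partner and intracellular partner, for I80 (circles) and DI150 (squares), filled where limma called the gene. B3gnt3 and Mgat3 lie lowest among the enzymes, Spn and Itga5 lie low among the surface partners, and Prkaa2 lies highest among the intracellular partners.

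No tested gene around Lgals1 had a difference of its size. Its nearest neighbours above 1 CPM are Pdxp, a phosphatase gene 7.21 kb before it, and Nol12, a nucleolar protein gene 4.47 kb after it. Pdxp had 3.31 and 3.92 CPM in PBS, 2.38 and 2.72 in I80, with 1.24 and 1.53 in DI150. Nol12 had 80.8 and 71.5 CPM in PBS, 65.4 and 77.2 in I80, with 103.4 and 102.4 in DI150. Over the 10 other tested genes within 150 kb of the Lgals1 start, log2 differences ran from -0.67 to 3.12 in I80 and from -1.46 to 1.02 in DI150. The highest in I80 was Gcat, an enzyme of threonine breakdown. Genes that did not pass the filter on low values are not among them. One of these is Lgals2, at chr15:78850860-78855529, which also starts within this window. It had 26 and 30 reads in PBS, 0 in both I80 libraries, and 0 and 1 in DI150. This window was chosen after the neighbours' values were seen.

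**Figure D4:**
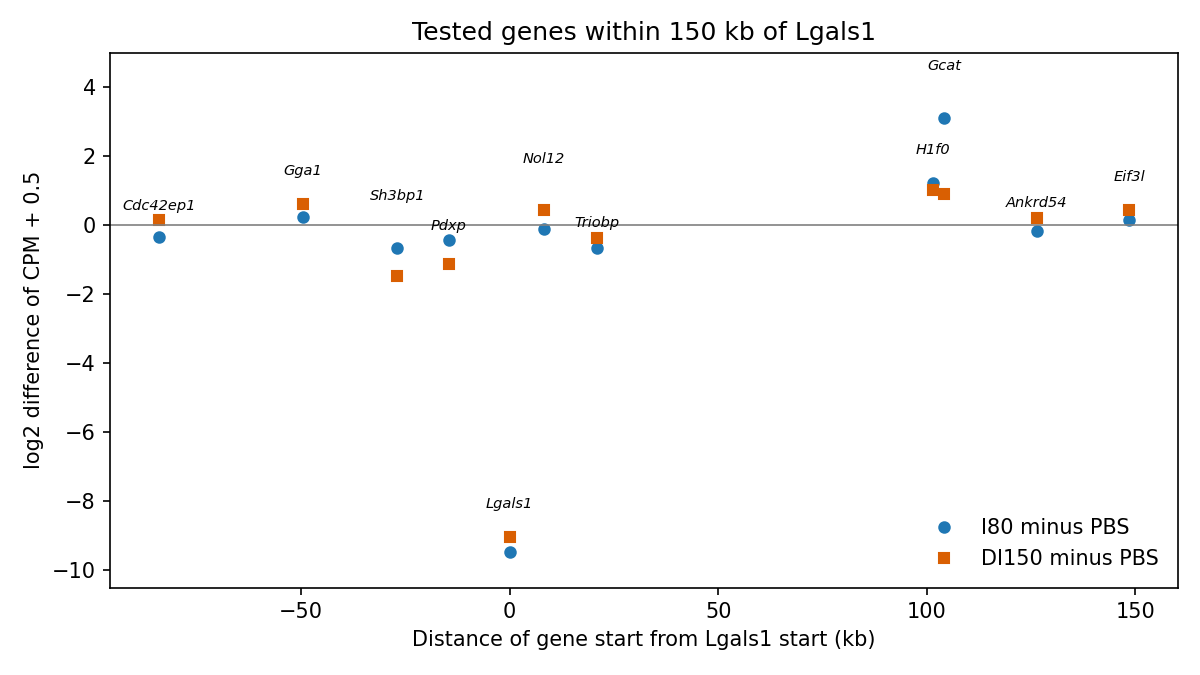
Difference in log2(CPM + 0.5) from PBS for I80 (circles) and DI150 (squares) against the distance in kb of each tested gene's start from that of Lgals1. Lgals1 lies at -9.47 and -9.04, and the 10 other genes lie between -1.46 and 3.12.

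The neighbours of the other members differed in direction from one to the next. Next to Lgals7, the actin crosslinker gene Actn4 had 1182 and 1314 CPM in PBS, 3031 and 3059 in I80, with 2864 and 2787 in DI150, opposite in direction to Lgals7. Ech1, a fatty acid oxidation enzyme gene before Lgals4, was not called by limma in the fit of all libraries, and was called in I80 against PBS (log2 difference -0.36) without PBS replicate 1. On both sides of Lgals9 the genes were higher in the treated lines, as Lgals9 was. Lyrm9 had 16.4 and 16.7 CPM in PBS, 39.9 and 38.9 in I80, with 38.5 and 39.2 in DI150. Ksr1, a Raf scaffold gene, had 3.16 and 3.11 CPM in PBS, 26.1 and 29.1 in I80, with 36.3 and 38.3 in DI150. limma adjusted p was 9.1e-06 for Lyrm9 in both treated lines, and 4.3e-07 in I80 and 2e-07 in DI150 for Ksr1. Beside Lgals3, Mapk1ip1l and the mitotic gene Dlgap5 were lower in both treated lines, at log2 differences of -0.82 and -0.56 in I80 and of -0.80 and -0.67 in DI150. Beyond Lgals8, the oxidoreductase gene Ero1b had 10.8 and 12.2 CPM in PBS, 7.49 and 5.89 in I80, with 13.2 and 11.1 in DI150.

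For each member, the 3 genes with the most similar profile over the 6 libraries were found as the smallest Euclidean distance between centred log2(CPM + 0.5) values. Groups and depth are shared by all points, so the likeness is a description. For Lgals1 they were the collagen chaperone Serpinh1 (distance 0.657), the membrane metalloproteinase Mmp14 (0.667) and the collagen Col8a1 (0.710). Serpinh1 had 269.9 and 272.8 CPM in PBS and 0.0390 to 0.0952 in the treated libraries. For Lgals3 they were the kallikrein Klk8 (0.195), the inhibin subunit Inhbb (0.259) and Zfp703 (0.332). For Lgals7 they were Magix (0.188), the transporter Abcc5 (0.269) and Zdhhc12 (0.274). For Lgals8 they were the DNA polymerase gene Polb (0.0887), Ufsp2 (0.0891) and the lysosomal ceramidase gene Asah1 (0.101), each stepping from PBS to DI150 to I80. For Lgals9 they were the lysosomal peptidase Tpp1 (0.175), Pgm1 (0.181) and Trim11 (0.185). Tpp1 had 45.2 and 63.1 CPM in PBS, 118.6 and 120.0 in I80, with 90.7 and 88.8 in DI150, the same order of groups as Lgals9. For Lgals4 they were Zdhhc1 (0.288), Ccdc103 (0.333) and Bphl (0.349). The Lgals1 distances were wider than those of the other members. As ratios of CPM, its nearest genes were lower still in the treated lines relative to PBS, with treated values of 0 to 0.0952 CPM. On the log2(CPM + 0.5) scale, which understates changes of low genes, that order was reversed in I80 for all 3. Lgals1 ranked 2 from the lowest there.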

How the data were processed

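Per the labels' protocols, total RNA of 6 MTflEcad samples was depleted of ribosomal RNA, made into stranded libraries and read as single reads. The submitters' processing notes name STAR and mm10. The sources used here name no counter or strand setting. Values were deposited by the authors as CPM, from which whole reads were recovered (100.0% of 146724 values within 0.001 reads, 21017849 to 26608715 reads a library). The second DI150 column carries the number 3 and was taken as a DI150 replicate by its name.

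Gene numbers were matched to RefSeq (99.67% with a symbol). limma 3.58.1 in R 4.3.3 (eBayes with trend, two-sided, Benjamini-Hochberg over 11428 genes) was run on log2(CPM + 0.5) in 1 fit of all groups, with 3 residual degrees of freedom. edgeR 4.0.16 and DESeq2 1.42.0 on whole reads were alternatives. With 2 libraries a group, p-values rest on the spread within these pairs, which may be technical. The scripts were tested on simulated data. Members, lists and tests were chosen with earlier results of these data known. The genes named from each list were the up to 4 called genes with the largest log2 difference per comparison. The nearest genes above 1 CPM on each side of a member, and the 3 with the nearest profile (predicted genes skipped), were also named.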

Additional observations from a re-analysis of the deposited data

Results flagged for a closer look

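The difference between the treated lines themselves was taken as DI150 minus I80 in log2, by limma with Benjamini-Hochberg adjustment. It was past the threshold for 20 of the partner and neighbour genes named, where 21.9% of all tested genes were called in each direction. Partner genes were named partly for being called in this same comparison, so nothing is read from that count. Of the 20, Ggta1 was the one called in opposite directions against PBS, at -1.90. Among glycan enzymes the values were -2.10 for St3gal3, -1.12 for St3gal2, 1.06 for Gcnt1 and 0.89 for Gcnt2. Among surface and matrix partners they were -2.03 for Egfr, -1.86 for Mcam, -1.47 for Fn1, -1.0 for Nrp1 and 0.53 for Itga3. Among intracellular partners they were -0.75 for Rraga, -0.72 for Prkaa2, -0.45 for Trim16, -0.33 for Tsg101, -0.25 for Bcl2 and 0.23 for Prkaa1. Among neighbours they were -0.70 for Pdxp, 0.53 for Nol12, 0.43 for Ksr1 and 0.82 for Ero1b. In at least 1 of the alternatives run, the call was lost for Bcl2, Gcnt2, Itga3, Ksr1, Pdxp, Prkaa1, Prkaa2, St3gal2, Trim16 and Tsg101.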

How the results depend on the processing

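With 2 libraries a group, the DI150 against I80 comparison moved most with the choice of libraries. It had 5008 called genes, 2688 with the replicate block, and 2487 to 5972 with 1 library left out. Of the 63 partner genes tested it called 35, 21 with the replicate block, and 21 to 40 with 1 library left out. The members past 1 log2 unit between the treated lines were 0, and 1 (Lgals4) in edgeR and in DESeq2. PBS and I80 libraries of the same number did not deviate together (r = 0.02 between the PBS and I80 differences of number 1 and 2, over 11428 genes). That value cannot show whether same-numbered samples were handled together, and DI150 replicate 3 has its own block.

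Directions that turned had small differences. With the replicate block, Lgals3 in DI150 against I80 became 0.0072 and Mapk1ip1l -0.0424. Leaving out 1 library gave ranges of -0.4574 to 0.2638 for Lgals4 and -0.2149 to 0.0221 for Nol12 in I80 against PBS. In DI150 against PBS the ranges were -0.1766 to 0.1066 for Ech1, -0.0433 to 0.1892 for Ero1b and -0.3763 to 0.1094 for Heatr1. In DI150 against I80 they were -0.1504 to 0.2061 for Lgals7 and -0.0001 to 0.0444 for Mapk1ip1l. The cause was not tested. Low counts limit Lgals4 and Lgals7: the Lgals7 log2 difference in I80 ran from -3.03 with a pseudocount of 1 to -5.90 in DESeq2. Of 264 galectin values under alternatives, 246 kept their sign and moved by less than the spread between replicates. Leaving out 1 of 2 libraries cannot move a difference past that spread. Several other alternatives leave a difference unchanged by design, so nothing is read from this count. The exon-union length put the Lgals1 share in PBS at 85.1%.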
